A study of Mus musculus with 21 samples.

Results

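SREBP2 and 6 genes of cholesterol synthesis and its feedback were followed in the left ventricle of mice that carry a mutation of hypertrophic cardiomyopathy and of wild-type mice: Srebf2, Insig1, Hmgcs1, Idi1, Fdft1, Sqle and Cyp51. They were chosen by symbol from the 55450 genes of the count table, each symbol matched 1 Ensembl identifier, and all 7 were among the 17309 genes that passed the filter on low counts. On GRCm38, Srebf2 (ENSMUSG00000022463) lies at chr15:82147181-82205379, Sqle (ENSMUSG00000022351) on the same chromosome at chr15:59315077-59331192, and Insig1 (ENSMUSG00000045294) at chr5:28071363-28078662, with Cyp51 also on chromosome 5, Hmgcs1 and Idi1 on 13 and Fdft1 on 14. Polyadenylated RNA was sequenced from 21 male 129S6/SvEv mice, 1 sample a mouse.

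WT-CD were wild-type mice on a control diet with 10% of its energy from lard and no sucrose (n = 5). R403Q-CD were mice heterozygous for a missense mutation of the α-myosin heavy chain, labelled Myh6+/R404Q and called R403Q, on the same control diet (n = 7). The same diet with empagliflozin (EMPA), an inhibitor of renal glucose transport, at 0.15 mg per g of diet or about 15 mg/kg of body weight, was given to mutant mice (R403Q-EMPA, n = 4) and to wild-type mice (WT-EMPA, n = 5). Diets began at 9 to 10 weeks of age and the transcriptome belongs to hearts of 12 weeks, whereas the sample labels give 16 weeks of treatment. Hearts of this age were chosen as a stage before ventricular hypertrophy. The mutation is in the germline, and the wild-type mice were littermates. None of the 7 cages held mice of both diets (4 held CD and 3 held EMPA mice), so cage and diet cannot be told apart.

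SREBP2, the product of Srebf2, is a membrane-bound transcription factor that is held in the endoplasmic reticulum with its escort SCAP by INSIG proteins when sterols are plentiful. When sterols fall, it is carried to the Golgi, cleaved, and enters the nucleus, where it binds sterol regulatory elements and raises transcription of the mevalonate pathway, of INSIG1 and of its own gene. Its activity is thus set by cleavage of the protein, which RNA does not measure, and RNA of the target genes is commonly read in its place. The heart makes little cholesterol compared with the liver and takes much of it up from lipoproteins.

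RefSeq promoter windows on GRCm38.p6 were on hand for 5 members, Srebf2, Insig1, Hmgcs1, Idi1 and Cyp51. Those of Srebf2 and Hmgcs1 are shown because they held a sterol regulatory element core, and that of Insig1 because it is the member whose feedback role the results return to. All 3 genes are read from the + strand. The windows are chr15:82147019-82147180, chr13:119690101-119690350 and chr5:28071162-28071362 in the order printed, and each stops before the first annotated start site. Capitals mark motif matches.
Srebf2: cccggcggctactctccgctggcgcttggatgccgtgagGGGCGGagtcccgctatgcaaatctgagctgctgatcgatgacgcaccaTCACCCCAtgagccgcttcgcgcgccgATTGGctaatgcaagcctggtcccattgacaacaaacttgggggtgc
Hmgcs1: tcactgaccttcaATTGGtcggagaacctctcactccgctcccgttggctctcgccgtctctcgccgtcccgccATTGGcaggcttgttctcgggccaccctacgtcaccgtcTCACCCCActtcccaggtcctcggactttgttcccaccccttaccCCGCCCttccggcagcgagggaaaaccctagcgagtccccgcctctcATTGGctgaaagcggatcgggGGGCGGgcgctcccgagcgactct
Insig1: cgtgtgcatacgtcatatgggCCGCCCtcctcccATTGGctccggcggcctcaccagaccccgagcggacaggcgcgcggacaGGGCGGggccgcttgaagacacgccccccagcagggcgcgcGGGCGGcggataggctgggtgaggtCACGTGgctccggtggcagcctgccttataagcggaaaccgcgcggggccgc
The element core was searched as TCACNCCA on both strands, and lay at -162 to -155 in Srebf2 and at -137 to -130 in Hmgcs1, counted from the RefSeq start site. It occurred in 2 of the 5 members and in 4.36% of 32851 mouse promoter windows of 300 bases. CCAAT, the motif of NF-Y, and GGGCGG, the GC box of SP1, are known partners of SREBP sites, and each occurred in 5 of 5 members, beside 37.4% and 35.7% of all promoters. These counts cover the whole windows of 300 bases. In Idi1 every match lay between the first annotated start site and the RefSeq start site. The E-box CACGTG was found in Insig1 alone among the 5 (7.15% of all promoters). No match overlapped another in these windows, and the motifs were picked after the sequences had been seen. A match is a run of letters and not a measured binding site.

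Srebf2 also hosts a microRNA gene, Mir33, whose mature form is known to act on Abca1, a gene that appears below. Its hairpin lies at chr15:82198122-82198190 (GRCm38) in intron 16 of the main annotated transcript, outside the exons of all 7 annotated Srebf2 transcripts. It had 0 counts over the 21 mice, in libraries of polyadenylated RNA that do not hold mature microRNAs. The mature sequence from RefSeq is shown with its seed (bases 2 to 8) in capitals.
mmu-miR-33-5p: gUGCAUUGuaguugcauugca

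Totals per mouse ran from 23491535 to 43539684 counts. The largest belonged to R403Q-CD mouse 2, which stood apart from the other 20 mice: its median Spearman correlation with them was 0.968 (others 0.986 or higher), and Myh6 took 1.95% of its counts (others 3.09% to 5.19%). Summed cardiomyocyte markers were 51155 CPM (counts scaled to library size) in this mouse and 66431 to 91594 in the others, fibroblast markers 3275 (934 to 2271) and atrial markers 608 (2.12 to 260). Sqle, Srebf2, Insig1 and Fdft1 had an extreme value in it, so the fold changes printed for these 4 genes that rest on R403Q-CD mice are given with and without it. In such bulk tissue, fewer cells of a type and less RNA per cell cannot be told apart.

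Per length of transcript, Fdft1, Hmgcs1 and Insig1 stood highest and Idi1 and Sqle lowest. On the scale of CPM divided by the exon length in kilobases (RPKM), Fdft1, squalene synthase and the first step committed to sterols, averaged 12.9 ± 2.41 (SD, n = 21 mice), Hmgcs1, the cytosolic HMG-CoA synthase, 10.9 ± 0.783 and Insig1 10.7 ± 2.62. Hmgcs1 exceeded Insig1 in 11 of 21 mice, so these neighbours did not differ beyond their spread, whereas Fdft1 exceeded Hmgcs1 in 18 of 21. Srebf2 averaged 4.49 ± 0.345 RPKM and Cyp51, the lanosterol demethylase, 2.83 ± 0.258, with Srebf2 above Cyp51 in 21 of 21 mice. Idi1, the isopentenyl diphosphate isomerase, averaged 0.433 ± 0.0900 and Sqle, the squalene epoxidase and a rate-limiting enzyme of the route, 0.193 ± 0.103. Sqle was thus read from as few as 12 and at most 154 counts a mouse, against 1054 to 2465 for Hmgcs1. Sqle also varied most, with a coefficient of variation of 53.4% over the 21 mice in CPM, followed by Insig1 (24.5%), while Hmgcs1 (7.15%) and Srebf2 (7.68%) varied least. Without R403Q-CD mouse 2 the coefficient of Sqle was 32.3% and remained the highest, with Idi1 next at 21.2%, and Sqle averaged 0.174 ± 0.0563 RPKM (SD, n = 20).

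**Figure D1:**
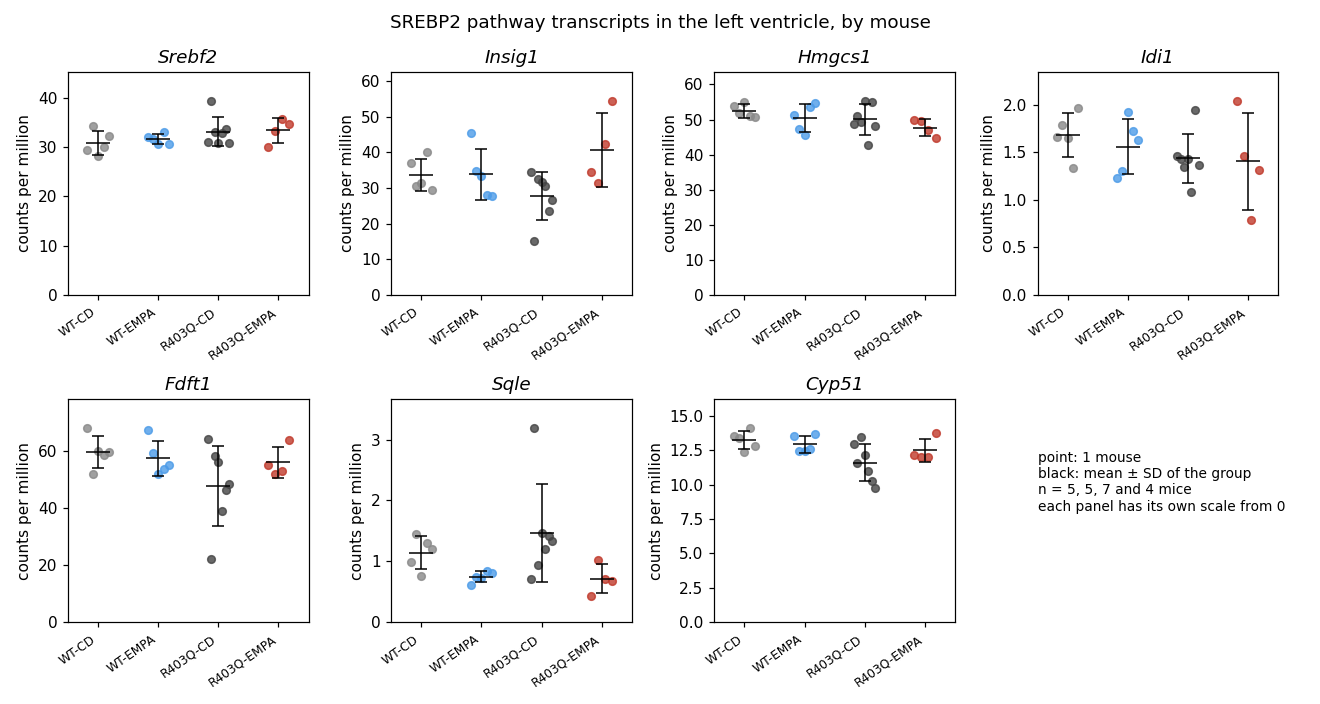
CPM of the 7 transcripts, 1 panel each with its own axis from 0. Points are mice, black marks the mean ± SD of WT-CD (n = 5), WT-EMPA (n = 5), R403Q-CD (n = 7) and R403Q-EMPA (n = 4). In the Sqle panel the WT-EMPA mice sit between 0.615 and 0.834 and 1 R403Q-CD mouse at 3.19.

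The diet comparison asks whether hearts of EMPA-fed mice held other levels of these transcripts. Sqle was lower with EMPA and was the only member past the threshold, while Srebf2, Hmgcs1, Idi1, Fdft1 and Cyp51 had fitted values within 0.09 of 0 and Insig1 passed an unadjusted p alone. Over the mean of both genotypes, 1 of 7 members was called by edgeR's quasi-likelihood test with Benjamini-Hochberg adjustment over all genes, beside 2.91% of the 17309 genes (0.936% lower with EMPA). With cage as a random effect, limma's voom fit called 0 of 7, beside 0.653% of genes (Sqle adjusted p = 0.169). At an unadjusted edgeR p under 0.05 there were 2 of 7, Sqle and Insig1, beside 20.1% of genes, and DESeq2 called Sqle alone, beside 5.88%.

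Sqle was 0.757, 0.984, 1.20, 1.30 and 1.45 CPM in the WT-CD mice and 0.615, 0.730, 0.735, 0.814 and 0.834 in the WT-EMPA mice. In R403Q-CD hearts it ran from 0.714 through a median of 1.33 to 3.19 CPM, and in R403Q-EMPA hearts it was 0.438, 0.679, 0.711 and 1.02. All 9 EMPA mice lay below the median of the 12 CD mice and 4 of them below every CD mouse, so the diets overlapped. The fitted difference was -0.83 on the log2 scale (SE 0.226, 95% interval -1.29 to -0.36, adjusted p = 0.0494, edgeR), or 0.564 of the CD level. Without R403Q-CD mouse 2 it was -0.66 (edgeR adjusted p = 0.0314). By genotype, it was -1.04 in R403Q hearts (SE 0.322, edgeR adjusted p = 0.191) and -0.61 in WT hearts (SE 0.317, edgeR adjusted p = 0.491), contrasts that share no mouse. The R403Q value was -0.71 without mouse 2.

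The call on Sqle lay at the threshold. It was lost with RLE size factors (adjusted p = 0.0512), scaling to library size alone (0.0569), no filter on low counts (0.0700), limma on the variance-stabilized values (0.0707) and voom with cage as a random effect (0.169), always in the same direction. It was kept in 4 of 21 fits without 1 mouse, those without R403Q-CD mouse 1, 2 or 3 or R403Q-EMPA mouse 2, and lost in the other 17 (edgeR adjusted p 0.0266 to 0.108).

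Other listed genes passed edgeR's test in this contrast as well. Of all genes, edgeR called 2.91%, voom with cage 0.653% and DESeq2 5.88%, and 20.1% had an unadjusted edgeR p under 0.05. Of 10 genes of the day arm of the circadian clock, 5 were lower with EMPA in the mean of both genotypes (edgeR), Hlf, Nr1d1, Per1, Ciart and Dbp, and of 6 genes of its night arm Arntl and Clock were higher. With cage as a random effect, voom called 2 of 10 day-arm genes, Ciart and Dbp, and 0 of 6 night-arm genes. DESeq2 called 9 of 10 and 3 of 6. Summed day-arm levels were 802 to 1113 CPM in CD and 537 to 975 in EMPA mice. Red cell markers were higher in 4 of 5, Alas2, Hbb-bs, Hba-a1 and Hbb-bt, with sums of 706 to 1717 CPM in CD and 1214 to 2660 in EMPA mice. The endothelial receptor Kdr was higher by edgeR too, as 1 of 6 markers of its cell type. With cage as a random effect, voom called 2 of 5 red cell markers, Alas2 and Hbb-bt, and 0 of 6 endothelial markers. DESeq2 called 4 of 5 red cell and 2 of 6 endothelial markers. Of 6 cardiomyocyte, 6 fibroblast, 5 smooth muscle, 6 macrophage, 3 atrial and 6 adipocyte markers tested, edgeR called 0 in this contrast, with 1, 2, 3, 0, 3 and 0 at an unadjusted p under 0.05, and DESeq2 called 1, Tagln of smooth muscle. The fitted values of the 5 smooth muscle markers were all below 0, from -1.20 to -0.44, and those of the 3 atrial markers ran from -2.92 to -2.22. Summed smooth muscle markers were 207 to 873 CPM in CD and 195 to 428 in EMPA mice, and atrial markers 3.22 to 608 and 2.12 to 78.1, so both overlapped. Their part in the Sqle result was not tested.

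Insig1 encodes the sterol-sensing brake on SREBP2 and is at the same time a target of it. Its levels were 31.3, 34.4, 42.3 and 54.4 CPM in R403Q-EMPA hearts, beside 15.0, 30.5 and 34.6 (lowest, median and highest) in R403Q-CD hearts. WT-CD mice had 29.5, 30.6, 31.5, 36.9 and 40.0 CPM, and WT-EMPA mice 27.7, 27.9, 33.3, 34.7 and 45.4. Thus 2 of 4 R403Q-EMPA mice lay above every R403Q-CD mouse and the wild-type groups overlapped throughout. The difference with EMPA in R403Q hearts was 0.55 (SE 0.184, 95% interval 0.17 to 0.93, edgeR adjusted p = 0.224), which missed the threshold, and was 0.44 without R403Q-CD mouse 2 (edgeR adjusted p = 0.267). In WT hearts it was 0.01 (95% interval -0.38 to 0.40). The difference between the genotypes in the effect of EMPA was 0.54 (95% interval -0.01 to 1.09, edgeR adjusted p = 0.999), and 0.43 without that mouse.

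Srebf2, the factor itself, was not called, and its interval was among the narrowest. Its levels were 28.1 to 34.3 CPM in WT-CD, 30.6 to 33.1 in WT-EMPA, 30.9 to 39.3 in R403Q-CD and 29.9 to 35.7 in R403Q-EMPA mice. The mean diet difference was 0.02 (95% interval -0.08 to 0.13), and 0.045 without R403Q-CD mouse 2. Hmgcs1, the entry enzyme of the route, differed by -0.06 (-0.16 to 0.04). Its levels were 50.6 to 55.0 CPM in WT-CD, 45.5 to 54.7 in WT-EMPA, 42.7 to 55.3 in R403Q-CD and 44.7 to 49.8 in R403Q-EMPA mice. Cyp51, at 9.79 to 14.1 CPM over the 21 mice, differed by 0.04 (-0.08 to 0.15), Fdft1 by 0.09 (-0.17 to 0.35), or 0.024 without that mouse, and Idi1, at 0.792 to 2.04 CPM, by -0.08 (-0.38 to 0.22). The wider intervals of Idi1 and Fdft1 leave room for changes that these mice could not show.

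Within a genotype, none of the members passed. In R403Q hearts edgeR called 0 of 7 members with EMPA, beside 0.0116% of genes, with 2 of 7 at an unadjusted p under 0.05 (Sqle and Insig1, beside 13.4%) and 0 of 7 by DESeq2 (0.937%). In WT hearts edgeR called 0 of 7, beside 0.0289%, with 0 at an unadjusted p under 0.05 (11%) and 0 by DESeq2 (0.553%). Voom with cage as a random effect called 0 of 7 in R403Q hearts (0.0116% of genes) and 0 of 7 in WT hearts (0.00578%). The test of whether the diet effect differed between genotypes also gave 0 of 7 by edgeR, where 0% of genes passed, with 0 of 7 at an unadjusted p under 0.05 (3.28%) and 0 by DESeq2 (0%).

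The wider route was read from a list of 21 enzymes, 5 of which are members. In the mean diet contrast edgeR called 1 lower, Sqle, and 0 higher, beside 2.91% of genes. Voom with cage as a random effect called 0 of 21, beside 0.653%. DESeq2 called 2 lower, Sqle and Msmo1, the sterol methyl oxidase, beside 5.88%. The fitted value of Msmo1 was -0.30 (SE 0.0916, edgeR adjusted p = 0.0745). The fitted value was below 0 for 17 of 21 and above 0 for 4, with a median of -0.09 beside -0.01 over all genes tested. Of all genes tested, 9071 of 17309 lay below 0. At an unadjusted edgeR p under 0.05 there were 3 enzymes lower and 0 higher, beside 20.1% of genes. In WT hearts 19 of 21 lay below 0 (median -0.16, all genes -0.0036), and in R403Q hearts 13 of 21 (median -0.03, all genes -0.0036). Among all 17309 genes, 8808 lay below 0 in WT hearts and 8799 in R403Q hearts.

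The genes that govern SREBP2 were read from a second list, and none was called in the mean diet contrast. Of 12 listed genes 11 could be matched and tested, among them Scap, the escort, Mbtps1 and Mbtps2, the proteases that cleave SREBP2, and Insig2. edgeR called 0 of 11, beside 2.91% of genes. At an unadjusted edgeR p under 0.05 there were 2, beside 20.1%, and DESeq2 called 0, beside 5.88%. Their median was 0.05.

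Uptake and export of cholesterol was covered by 15 genes, of which 14 were tested. In the mean diet contrast edgeR called 2.91% of all genes and voom with cage 0.653%. Abca1, the pump that loads cholesterol onto lipoproteins, was the single gene called by edgeR in the mean diet contrast, higher with EMPA by 0.55 (SE 0.0879, edgeR adjusted p = 0.00466), and was called by voom with cage as well. It measured 52.4 to 59.3 CPM in WT-CD mice and 66.3 to 108.5 in WT-EMPA mice, without overlap. In R403Q hearts it was 42.7, 47.3 and 63.1 CPM (lowest, median and highest) on CD and 58.7 to 81.9 on EMPA, which overlapped. The median of the 14 was -0.06.

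The genotype comparison asks whether the mutation goes with other levels of these genes in the hearts at 12 weeks, and the contrast on CD shares its control mice with the diet contrasts above. No member passed. Cyp51, Fdft1, Insig1 and Hmgcs1 had their lowest value of the 21 mice in R403Q-CD hearts, the largest group. Those of Fdft1 and Insig1 came from mouse 2. Hmgcs1, Srebf2 and Sqle also had their highest value in R403Q-CD hearts, for Srebf2 and Sqle in mouse 2. On CD, edgeR called 0 of 7 members, beside 1.44% of genes, with 1 of 7 at an unadjusted p under 0.05, Cyp51 (beside 20.9%), and 0 of 7 by DESeq2 (6.11%). Each CD cage held mice of both genotypes, and with cage as a block within the diet edgeR called 0 of 7 members and 19 genes in all (0.115%), against 250 without the block. With cage as a random effect, voom called 0 of 7 members and 475 genes (2.74%). Cyp51 measured 12.4, 12.8, 13.4, 13.6 and 14.1 CPM in WT-CD hearts and 9.79, 11.5 and 13.5 (lowest, median and highest) in R403Q-CD hearts, which overlapped. Its difference was -0.19 (SE 0.0742, edgeR adjusted p = 0.152) and -0.20 without mouse 2.

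Fdft1 measured 52.0, 58.4, 59.6, 59.9 and 67.9 CPM in WT-CD hearts, and 22.0, 48.4 and 64.2 (lowest, median and highest) in R403Q-CD hearts. On EMPA it measured 51.9, 53.6, 55.0, 59.3 and 67.3 CPM in WT hearts and 52.0, 53.1, 54.9 and 63.7 in R403Q hearts. The groups overlapped on both diets, and 3 of 7 R403Q-CD mice lay within the range of the WT-CD mice. Cage by cage on CD, every R403Q mouse lay below every wild-type mouse of its cage, for Fdft1 and for Cyp51. That held for no other member, and the smallest such gap of Fdft1 was 58.2 beside 58.4 CPM. With cage as a block, edgeR called neither gene. The difference on CD was -0.32 (95% interval -0.66 to 0.02, edgeR adjusted p = 0.264), and -0.20 without mouse 2, which held the 22.0. For Sqle it was 0.38 (-0.21 to 0.96) with that mouse and 0.04 without it, and for Srebf2 0.10 (-0.03 to 0.24) and 0.05. Insig1 had -0.28 with it and -0.18 without it (edgeR adjusted p = 0.359 and 0.564). Hmgcs1 differed by -0.07 (-0.20 to 0.06) and Idi1 by -0.23 (-0.62 to 0.16).

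Of 6 macrophage markers, edgeR called 2 higher in R403Q-CD than in WT-CD hearts, Adgre1 and Csf1r. Voom with cage as a random effect called the same 2, DESeq2 called 5, and edgeR with cage as a block called 0. Of all genes on CD, edgeR called 1.44%, voom with cage 2.74%, DESeq2 6.11% and edgeR with the block 0.115%. The summed levels of the 6 were 155 to 206 CPM in WT-CD and 209 to 329 in R403Q-CD hearts. Fibroblast markers were called in 0 of 6 by edgeR (4 at an unadjusted p under 0.05, beside 20.9% of genes, and 2 by DESeq2). Their sums were 995 to 1600 CPM in WT-CD and 1369 to 3275 in R403Q-CD hearts. Their part in the values of the members was not tested. On EMPA, edgeR called 0 of 7 members between genotypes, beside 0.0578% of genes, with 0 of 7 at an unadjusted p under 0.05 (14.7%) and 0 by DESeq2 (2.04%). Voom with cage called 0 of 7 there (0.0636% of genes), as did edgeR with cage as a block (0.0361%). There the fitted values of the members ran from -0.16 for Idi1 to 0.26 for Insig1 (median -0.05, all genes 0.0091), and on CD from -0.32 for Fdft1 to 0.38 for Sqle (median -0.19, all genes 0.01).

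Of the wider lists, edgeR called 0 of 21 synthesis enzymes, 0 of 11 genes that govern SREBP2 and 0 of 14 genes of uptake and export between genotypes, on CD as on EMPA. Its share of all genes was 1.44% on CD and 0.0578% on EMPA. At an unadjusted edgeR p under 0.05 there were 4, 0 and 7 on CD, beside 20.9% of genes, and 0, 1 and 2 on EMPA, beside 14.7%. DESeq2 called 0, 0 and 4 on CD (6.11% of genes) and 0, 0 and 1 on EMPA (2.04%). The 7 genes of uptake and export on CD all had fitted values above 0, the median of the 14 was 0.25, and voom with cage called 2 of them (2.74% of genes). With cage as a block within the diet, edgeR called 0 of each list.

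From mouse to mouse, the members did not move as a block. Of 21 pairs of members, 11 had a positive Pearson r over the 21 mice in log2 CPM, with a median r of 0.02. Srebf2 was related to none of its 6 partners by both measures after adjustment over 6 (permutation test, 2-sided). Its strongest relation was with Fdft1, with r = -0.64 (permutation p = 0.00522, adjusted 0.0313) but Spearman's rho = -0.40 (permutation p = 0.0711), and r was -0.26 without the 2 mice farthest from the median of Srebf2. On CD that r was -0.82 (n = 12), or -0.54 without R403Q-CD mouse 2, and on EMPA 0.09 (n = 9). With Insig1, Srebf2 had r = -0.80 on CD, or -0.49 without that mouse, and 0.50 on EMPA. After group means were subtracted, Srebf2 was most strongly related to Sqle, with r = 0.73, beside -0.63 with Fdft1. Before that subtraction, r with Sqle was 0.49, and 0.15 without R403Q-CD mouse 2. The other 15 pairs were added after the data had been seen, and 2 of all 21 passed by both measures after adjustment over 21.

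Insig1 rose and fell with Fdft1, with r = 0.80 (permutation p = 0.00011, adjusted 0.00231) and rho = 0.67 (permutation p = 0.00134, adjusted 0.0120). Without R403Q-CD mouse 2, r was 0.58 and rho 0.62, and without the 2 mice farthest from the median of Insig1, that mouse and R403Q-EMPA mouse 4, r was 0.56. Within CD mice r was 0.89 (n = 12), or 0.61 without that mouse, and within EMPA mice 0.70 (n = 9). Insig1 ran opposite to Sqle, with r = -0.72 (permutation p = 0.00065, adjusted 0.00682) and rho = -0.66 (permutation p = 0.00172, adjusted 0.0120). There r was -0.50 without mouse 2, -0.47 without the same 2 mice, and within diets -0.78 on CD (-0.38 without that mouse) and -0.39 on EMPA. Fdft1 and Cyp51 had rho = 0.72 (permutation p = 0.00028, adjusted 0.00588) and r = 0.53 (permutation p = 0.0209, adjusted 0.0733), with r = 0.72 without the 2 mice farthest from the median of Fdft1.

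**Figure D2:**
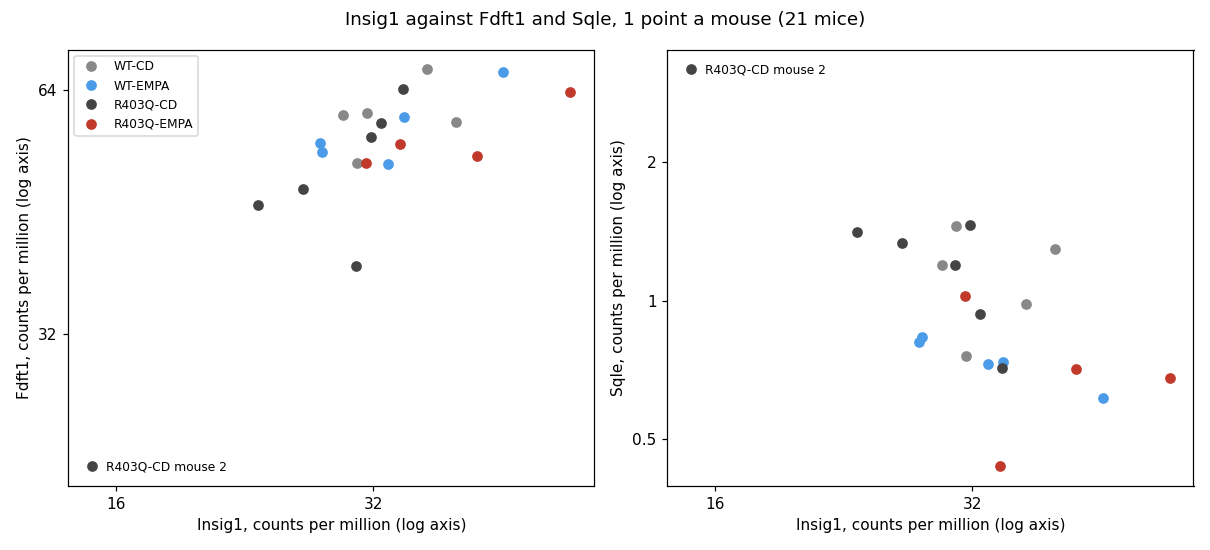
Insig1 against Fdft1 (left) and against Sqle (right) in CPM on log axes, 1 point a mouse, coloured by group. R403Q-CD mouse 2 lies at the corner of both panels, at 15.0 for Insig1, 22.0 for Fdft1 and 3.19 for Sqle. The correlation with Fdft1 is 0.80 with it and 0.58 without it.

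The 10 genes most like the mean of the members over the 21 mice had r between 0.72 and 0.76 and were Alkbh8, Hcfc2, Slc16a9, Ipp, Sbk2, Dcp2, Btrc, Zfa-ps, Rab14 and Eif2ak1, out of 17281 genes ranked. None belongs to the lists of sterol genes. The choice was not stable: 9 of 10 were shared with variance-stabilized values, 3 of 10 after group means were subtracted and 3 of 10 without R403Q-CD mouse 2.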

How the data were processed

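RNA of 21 left ventricles, 1 sample a mouse, was analysed. The authors aligned read pairs to mm10 with STAR 2.6.0c and made the deposited counts with featureCounts (Subread 1.6.2) from uniquely aligned proper pairs on the same strand, without mitochondrial genes (Ensembl annotation, FastQC 0.11.7). The deposited log2 values are those counts after the authors' DESeq2 1.32.0 variance-stabilizing transformation, and served as an alternative only. Counts were fitted in R 4.3.3 with edgeR 4.0.16: filterByExpr with a minimum count of 10, TMM, 1 quasi-likelihood fit of 4 groups, Benjamini-Hochberg adjustment over 17309 genes and a threshold of 0.05. The CPM printed are scaled by TMM, log2 CPM had a prior count of 2, and RPKM used exon lengths of GENCODE on GRCm38, which named 55104 of 55450 genes. Correlations had 100000 permutations. Alternatives were DESeq2 1.42.0, limma 3.58.1, voom with cage as a random effect (consensus correlation of mice of a cage 0.103), other scalings, no filter and fewer groups. Cage, as the labels give it, was also fitted as a block within a diet, and each mouse was left out in turn. The edgeR fit was checked on simulated counts with known changes. The members and lists were chosen with earlier results of these data known. Genes were named by rule: the 7 members, listed genes called in a contrast or needed to order the pathway, and the 10 genes most like the mean of the members. Scap, Mbtps1, Mbtps2, Insig2 and Msmo1 were named for their role or after their values had been seen. Single values of some listed genes are not reported here.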

Additional observations from a re-analysis of the deposited data

Results flagged for a closer look

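Among 28 groups of a member, 3 held a mouse that stood far from the rest of its group, where chance gives about 1 in 20. In R403Q-CD hearts, mouse 2 had 39.3 CPM of Srebf2, with the next mouse at 33.7, and 3.19 CPM of Sqle, with the next at 1.46. In R403Q-EMPA hearts, mouse 4 had 13.8 CPM of Cyp51, with the next at 12.2.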

How the results depend on the processing

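Depth limits Sqle (12 to 154 counts a mouse) and Idi1 (29 to 79) most, so small changes of these 2 could not be seen. All cages but 1, which held WT-EMPA mice only, held both genotypes on 1 diet, so the genotype contrasts were also fitted with cage as a block within a diet. The block changed no call of a member (0 of 7 on either diet), and over all genes calls went from 250 to 19 on CD and from 10 to 6 on EMPA (475 and 11 by voom with cage). No cage held both diets, so the diet contrasts had no such fit. The number of members called in the mean diet contrast went from 1 to 0 with RLE size factors, library size alone, no filter, limma on variance-stabilized values and voom with cage, and ran from 0 to 1 without 1 mouse. The cause was not tested. Over all genes that contrast had 504 calls by edgeR, 984 by DESeq2 and 113 by voom with cage. In the other 5 contrasts 0 members were called under every alternative run. Of 308 member fold changes under alternatives other than leaving out a mouse, 11 changed sign, none of them called: with library size alone Srebf2 in R403Q hearts with EMPA (-0.0153), Insig1 in WT hearts with EMPA (-0.00274) and, between genotypes on EMPA, Fdft1 (0.0132), Sqle (0.00278) and Cyp51 (0.00153). Insig1 in WT hearts was -0.000896 with no filter, -0.00548 with limma, -0.0431 with voom and -0.00148 with 2 groups, Idi1 in the interaction -0.0207 with voom, and Fdft1 between genotypes on EMPA 0.0365 with the cage block. The r of Srebf2 and Cyp51 became 0.0418 after group means were subtracted. Leaving out 1 mouse changed the sign in 28 of 882 values, of 10 results. The ranges were, for Srebf2, -0.0261 to 0.0618 with EMPA in R403Q hearts and -0.0639 to 0.0266 in the interaction; for Insig1 -0.123 to 0.0751 with EMPA in WT hearts; for Hmgcs1 -0.0552 to 0.0188 in the interaction; for Idi1 -0.276 to 0.157 in R403Q hearts, -0.194 to 0.0223 in the mean diet contrast, -0.165 to 0.269 in the interaction and -0.394 to 0.0351 between genotypes on EMPA. For Fdft1 and Sqle between genotypes on EMPA they were -0.107 to 0.0244 and -0.286 to 0.118.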
